A study of Homo sapiens with 9 samples.

Results

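Keratin genes were examined in PC-3 cells, a human prostate cancer cell line, after treatment with decitabine or with decitabine plus S-adenosylmethionine (SAM). The members were the protein-coding genes whose GENCODE symbol is KRT followed by a number and, for some, the letter A, B or C. There were 55 such genes among 60617 gene identifiers, of which 19892 were protein-coding. On chromosome 12 there were 27 of them, and 28 were on chromosome 17. By filament type, 29 were type I (acidic) and 26 were type II (basic to neutral) keratins.

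The libraries fell into 3 groups of 3. The control cells (Ctrl) received vehicle, the decitabine cells (Dec) received 1 µM of the DNA methyltransferase inhibitor decitabine, and the combination cells (Dec_Sam) received 1 µM decitabine together with 200 µM SAM, the methyl donor of the cell. All cells were treated for 5 days. PC-3 is 1 established line, and cells that received only SAM are not analysed here. The labels do not say that the replicates were separate cultures, so p-values measure only the spread between these libraries. Library totals were between 21934307 and 22489684 estimated counts. The epithelial gene EPCAM had 321 to 589 counts in every library. CDH1 (E-cadherin) had 36.5 to 40 counts in controls and 323 to 413.9 in treated libraries. CLDN4, also epithelial, went the other way, with 7385.9 to 8381 counts in controls and 3316 to 4057 in treated libraries. KLK3, the gene of prostate-specific antigen, had 0 counts in all 9 libraries. In bulk RNA, fewer cells expressing a gene and less RNA per cell cannot be told apart.

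Keratins are the intermediate filament proteins of epithelial cells. A filament is built from pairs of 1 type I and 1 type II chain, so epithelia express matching partners. KRT8 and KRT18 are the usual pair of simple, single-layered epithelia, joined there by KRT7, KRT19 and KRT20. KRT5, KRT14, KRT15 and KRT17 are linked to basal cells of layered epithelia, and a further group to the suprabasal or squamous layers above them. Other keratins belong to the hair follicle, some to its inner root sheath and companion layer and others to the hair shaft. In the prostate, luminal cells are known for KRT8 and KRT18 and basal cells for KRT5 and KRT14.

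In control cells, the keratin RNA came mostly from 5 simple or hair follicle genes. Levels between genes are given as CPM per kb of annotated transcript, CPM being counts scaled to a common library depth by the trimmed mean of M-values (TMM). KRT81, a type II hair shaft keratin, had the highest mean at 582 ± 101 CPM per kb (SD, n = 3). KRT18 followed with 301 ± 18.5 and KRT19 with 259 ± 16.1 CPM per kb. KRT75, a type II keratin of the hair follicle companion layer, had 90.0 ± 7.55 and KRT8 had 67.1 ± 6.16 CPM per kb. KRT10, KRT15, KRT86, KRT80 and KRT7 had means between 2.35 and 15.3 CPM per kb, and the remaining members were lower.

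Of the 55 members, 24 had enough counts to be tested, and 31 did not. There was no count in any library for 11 of the untested genes, namely KRT2, KRT6C, KRT25, KRT26, KRT28, KRT72, KRT73, KRT74, KRT76, KRT82 and KRT222. In a single library a count of 0 allows up to 0.15 CPM, the level of 3 counts. The other 20 untested genes had at most 7 counts in any library, and they included KRT1, KRT5 and KRT16. Of the 24 tested genes, 10 had at most 3 counts in each control library. Such genes passed the filter through the treated groups in which they were high, so they could hardly appear among the tested genes without a difference. KRT13, KRT20, KRT32 and KRT34, with 2 to 15 counts in each control library, also needed the treated groups to pass. The number of such genes, and any median over the tested keratins, is therefore given as a description.

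In decitabine-treated cells, 19 of the 24 tested keratins were upregulated and 4 were downregulated against the controls, in edgeR's quasi-likelihood test with a Benjamini-Hochberg adjusted p-value under 0.05. Over all 18532 genes tested, 68.8% were called, 36.3% higher and 32.5% lower. The median log2 fold change was 2.85 for the tested keratins, 0.26 for the 10 that averaged 50 or more counts in controls, and 0.03 for all genes. The combination treatment likewise gave 19 higher and 4 lower keratins against the controls, with a median of 2.65, or 0.52 over those 10. Its background was 67.2% called, 35.9% higher and 31.3% lower. Both comparisons used the same 3 control libraries. At an absolute log2 fold change over 1, decitabine left 17 keratins higher (22.7% of all genes) and 0 lower (6.15%), and the combination left 17 higher (21.4%) and 1 lower (6.56%). Treated libraries were all above all controls for 17 keratins with decitabine (38.1% of all genes) and 19 with the combination (38% of all genes), and all below for 4 in each case (34.8 and 33.6%).

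Among the 10 keratins that averaged 50 or more counts in control cells, 5 were upregulated by decitabine (KRT7, KRT8, KRT80, KRT81 and KRT86) and 4 were downregulated (KRT15, KRT18, KRT19 and KRT75). KRT10 was not called. With either treatment, 15 members reached that level. By class, decitabine raised 3 of 5 simple keratins and lowered 2. It raised 2 of the 3 basal, 5 of the 6 suprabasal or squamous, 6 of the 6 hair and 3 of the 3 unclassed keratins tested. The single tested companion layer gene, KRT75, was lowered. Each class had the same numbers higher and lower with the combination treatment. Over all genes, decitabine raised 36.3% and lowered 32.5%, and the combination raised 35.9% and lowered 31.3%. With untested members, the basal, suprabasal or squamous, hair and unclassed classes hold 4, 14, 17 and 6 genes. Raised genes such as KRT14, KRT17, KRT4, KRT6A, KRT9 and KRT12 passed the filter through the treated groups. The class counts are therefore a description of the tested members.

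**Figure D1:**
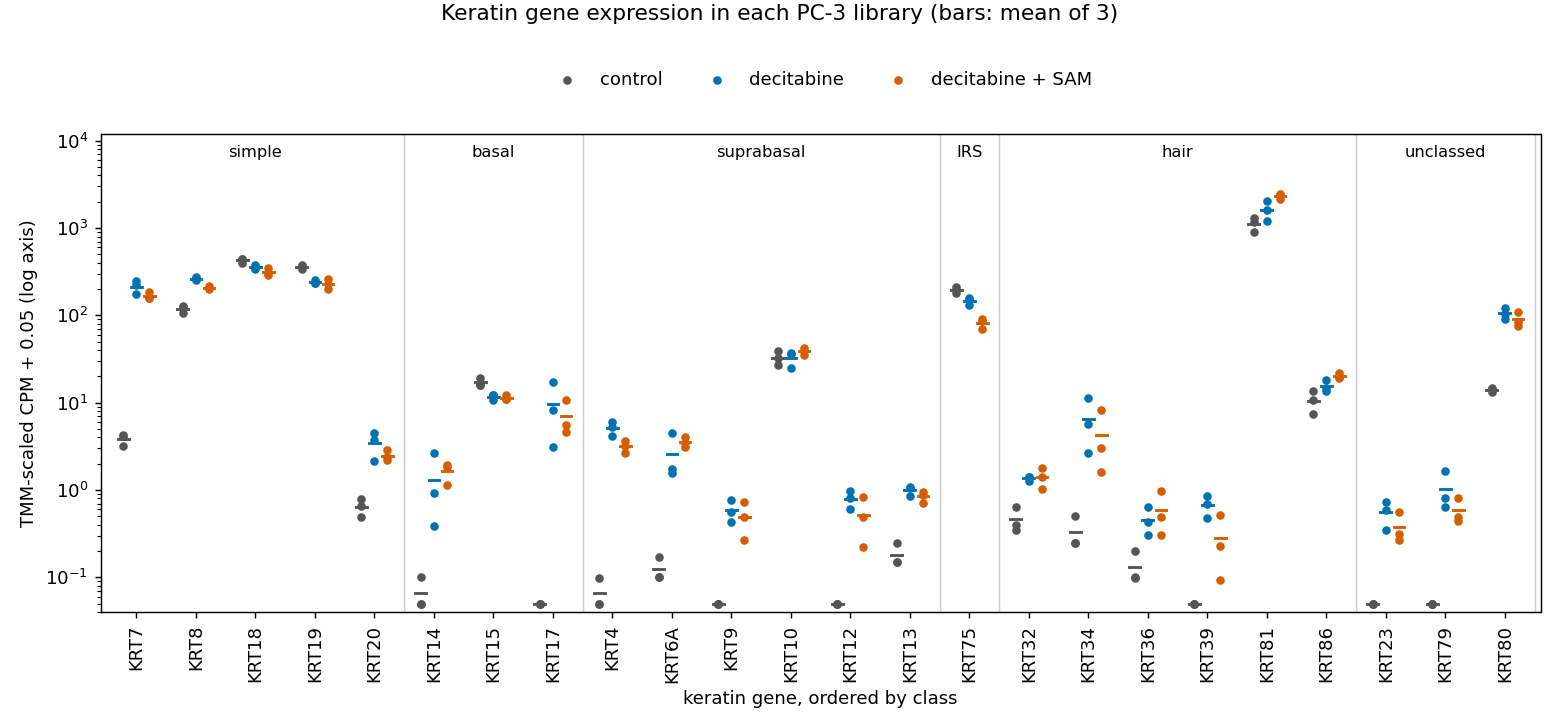
TMM-scaled CPM of the 24 tested keratins in each of the 9 libraries (dots, with a bar at the mean of 3), plotted as CPM + 0.05 on a log axis and ordered by class, with IRS for inner root sheath and companion layer. KRT81 lies highest in all groups, and KRT7 moves from 3.18 to 4.20 CPM in controls to 156 CPM or more in treated libraries.

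The simple keratins moved in both directions. KRT7 (ENSG00000135480, chr12:52232520-52252186, plus strand, GRCh38), a type II keratin of glandular and ductal epithelia, had 3.18, 4.10 and 4.20 CPM in the control libraries. It had 175, 220 and 246 CPM with decitabine and 158, 156 and 187 CPM with the combination. Every treated library lay far above every control. The log2 fold change with decitabine was 5.80 (SE 0.16), a 55.7-fold rise, with an edgeR adjusted p of 4.5e-11. With the combination it was 5.45 (SE 0.16, edgeR adjusted p = 8e-11).

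KRT8 (chr12:52897187-52949954, minus strand), the usual type II chain of simple epithelia, had 107, 127 and 125 CPM in controls. With decitabine it had 254, 274 and 265 CPM, and with the combination 217, 207 and 201 CPM. The 3 groups did not overlap. KRT8 rose 2.21-fold with decitabine (log2 fold change 1.14, SE 0.08) and 1.74-fold with the combination (0.80, SE 0.08), with edgeR adjusted p-values of 1.6e-08 and 5.1e-07.

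KRT18 (chr12:52948871-52952906, plus strand), the type I partner of KRT8 and its neighbour on chromosome 12, had 437, 445 and 396 CPM in controls. It had 358, 376 and 340 CPM with decitabine and 350, 305 and 293 CPM with the combination. All treated libraries were below all controls. The log2 fold change was -0.25 (SE 0.08, edgeR adjusted p = 0.014) with decitabine and -0.43 (SE 0.08, edgeR adjusted p = 0.00031) with the combination. The decitabine change was -0.01 without TMM scaling, a setting that moved the median of all genes to 0.281, and it missed the threshold without control replicate 2 (-0.23).

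KRT19 (chr17:41523617-41528308, minus strand), the smallest type I keratin, showed a larger decrease. It had 381, 364 and 337 CPM in controls, 253, 236 and 233 CPM with decitabine, and 260, 228 and 198 CPM with the combination. The control libraries were all higher than the treated ones. The log2 fold changes were -0.58 (SE 0.09, edgeR adjusted p = 5.8e-05) and -0.66 (SE 0.09, edgeR adjusted p = 2e-05).

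KRT20, a type I keratin known from intestinal and urothelial cells, had 15, 12 and 9 counts in controls. It had 106, 87 and 50 counts with decitabine and 64, 53 and 51 counts with the combination. The treated groups were both above the controls, by 2.51 (SE 0.31) and 2.02 (SE 0.32) on the log2 scale, with edgeR adjusted p-values of 6.5e-06 and 7.1e-05. Its level stayed low, at 1.90 CPM per kb with decitabine and 1.35 with the combination, where KRT7 had 131 and 103 CPM per kb.

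The ratio of KRT18 and KRT19 to KRT8 and KRT7 was lower in treated cells. In controls there was 4.01, 4.42 or 5.15 times as much KRT18 as KRT8 per kb, listed from the lowest to the highest library. With decitabine the ratio was 1.62, 1.73 and 1.78, and with the combination 1.83, 1.86 and 2.03. For KRT18 plus KRT19 over KRT8 plus KRT7, the mean ratio was 8.14 ± 1.14 in controls, 1.54 ± 0.192 with decitabine and 1.77 ± 0.227 with the combination (SD, n = 3). Control and treated libraries did not overlap in either ratio. The two-sided exact permutation p was 0.1 for each of these contrasts with controls, the smallest that 3 against 3 libraries allow, and 0.157 after adjustment over 33 such tests.

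**Figure D2:**
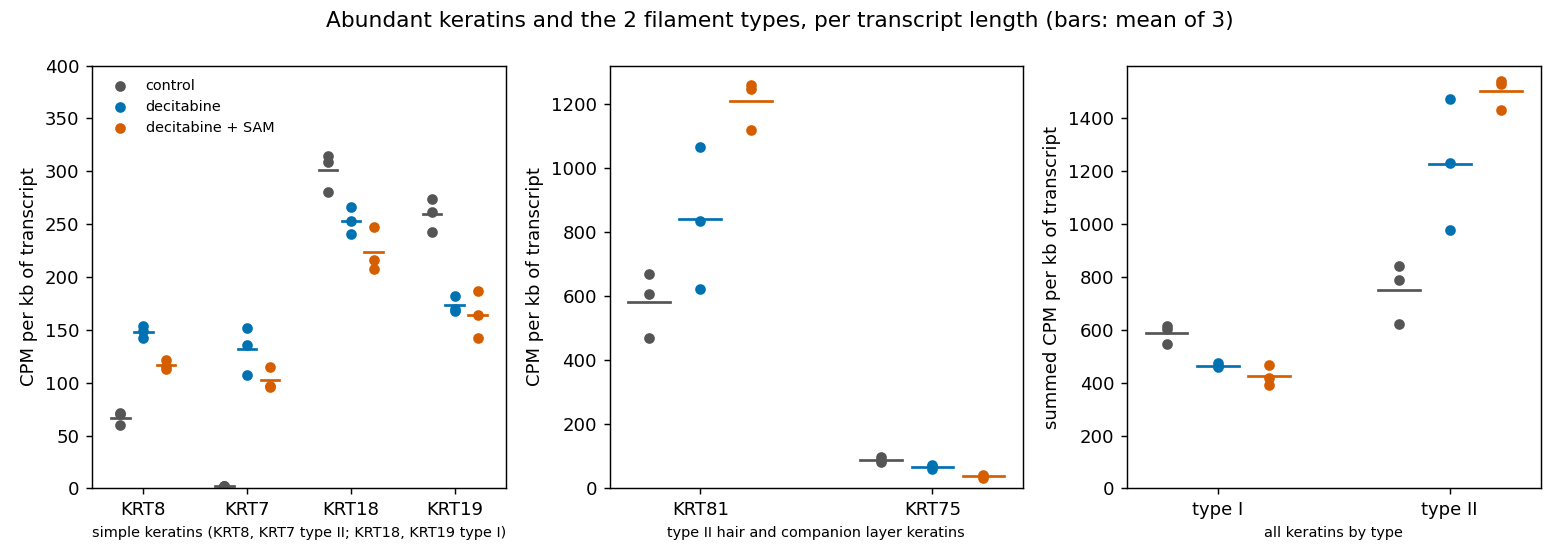
CPM per kb of transcript in each library (dots, bar at the mean of 3) for the abundant simple keratins, for KRT81 and KRT75, and summed over all type I and all type II keratins. KRT8 and KRT7 rise while KRT18 and KRT19 fall, and summed type II keratins go from a mean of 750 to 1230 and 1500 CPM per kb.

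The hair keratins were led by KRT81 (chr12:52285913-52291534, minus strand). KRT81 had 909, 1290 and 1170 CPM in controls, 1200, 1610 and 2060 CPM with decitabine, and 2410, 2430 and 2160 CPM with the combination. The control and decitabine libraries overlapped, and the combination libraries were above all others. The log2 fold change was 0.53 (SE 0.19, edgeR adjusted p = 0.031) with decitabine and 1.05 (SE 0.19, edgeR adjusted p = 0.0009) with the combination. The decitabine call did not hold in 6 of the 9 fits that left out 1 library. Its log2 fold change was 0.39 without control replicate 1, 0.55 without control replicate 3, 0.53 without decitabine replicate 2 and 0.32 without decitabine replicate 3. It was 0.52 without combination replicate 1 and 0.53 without combination replicate 3. The combination call held in all 9 of those fits.

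KRT86 (chr12:52249300-52309163, plus strand), a second type II hair shaft keratin, followed the same course at a far lower level. It had 7.38, 10.6 and 13.5 CPM in controls, 13.4, 14.8 and 18 CPM with decitabine, and 19.6, 21.6 and 19.0 CPM with the combination. The decitabine group overlapped the controls by 1 library and the combination group lay above both. Its log2 fold changes were 0.55 (SE 0.18, edgeR adjusted p = 0.016) and 0.93 (SE 0.18, edgeR adjusted p = 0.00052), and the first missed the threshold without control replicate 1 (0.34) or decitabine replicate 3 (0.42). KRT81 lies within the span of KRT86 on the other strand, and 43.18% of the 31-base words of KRT81 transcripts also occur in KRT86 transcripts. Counting KRT81, KRT83, KRT86 and the pseudogene KRT87P together, an alternative chosen after seeing the data, gave log2 fold changes of 0.53 and 1.05. KRT81 averaged 22600 counts in controls and KRT86 211, so the pooled values could hardly differ from those of KRT81. They do not show how reads were split between these genes.

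KRT34 (chr17:41377669-41382306, minus strand), a type I hair shaft keratin, had 4, 9 and 4 counts in controls. It had 61, 135 and 264 counts with decitabine and 36, 67 and 191 counts with the combination. Replicate 3 was the highest in both treated groups. The log2 fold changes were 4.50 (SE 1.04, edgeR adjusted p = 0.0066) and 3.88 (SE 1.07, edgeR adjusted p = 0.015). The first was 3.85 without decitabine replicate 3. The second was 2.97 without combination replicate 3, and it missed the threshold without control replicate 1 (3.68) or control replicate 3 (3.67).

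The other tested hair keratins were rare. KRT32 had 6 to 12 counts in controls, and the range was 29 to 32 for decitabine and 23 to 40 for the combination. KRT36 had 1, 3 and 1 counts in controls, 9, 6 and 14 with decitabine and 21, 10 and 6 with the combination. KRT39 had no count in controls, 10, 15 and 19 counts with decitabine and 1, 4 and 11 with the combination. All 3 were upregulated by both treatments, KRT39 at least 12.5-fold with decitabine and at least 4.66-fold with the combination, taking 3 counts over the 3 control libraries as the floor. The bound for the combination was 2.20-fold without combination replicate 3. The decitabine call for KRT36 (log2 fold change 2.23) was lost without decitabine replicate 3 (1.86), and it was 2.90 without control replicate 2. For the combination (2.61) KRT36 was 3.29 without control replicate 2 and 1.98 without combination replicate 1.

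KRT75 (chr12:52424070-52434371, minus strand) was the member with the clearest stepwise decrease. It had 179, 196 and 211 CPM in controls, 154, 157 and 132 CPM with decitabine, and 69.8, 85.3 and 89.9 CPM with the combination. The 3 groups did not overlap. Its log2 fold change was -0.41 (SE 0.10, edgeR adjusted p = 0.0023) with decitabine and -1.26 (SE 0.10, edgeR adjusted p = 1e-07) with the combination. Without TMM scaling the decitabine change was -0.16 and was not called.

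Of the basal keratins, KRT15, the type I keratin of basal and stem-like cells of layered epithelia, was downregulated. It had 16.0, 19.3 and 16.1 CPM in controls, 12.1, 10.8 and 12.2 CPM with decitabine and 12.2, 11.1 and 10.9 CPM with the combination. Both treated groups were below the controls, by log2 fold changes of -0.55 (SE 0.11) and -0.59 (SE 0.11), with edgeR adjusted p-values of 0.00043 and 0.00029.

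KRT17 (chr17:41619442-41624842, minus strand), a type I keratin of basal and injured epithelium, went the other way. It had no count in the 3 control libraries, 73, 194 and 408 counts with decitabine, and 105, 125 and 251 counts with the combination. This is at least 191-fold higher with decitabine and at least 140-fold higher with the combination, against a floor of 3 counts over the 3 controls. Without decitabine replicate 3 the first bound was 113-fold. KRT17 was called in both comparisons (edgeR adjusted p = 0.0095 and 0.013). The treated libraries differed widely among themselves, and 32.82% of the 31-base words of KRT17 transcripts occur in transcripts of other genes.

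KRT14, the type I basal partner of KRT5, had 1, 0 and 0 counts in controls, 8, 21 and 61 with decitabine and 25, 41 and 44 with the combination. The ratio of CPM to controls was 76.6 for decitabine (95% counting interval 13.4 to 3060) and 96.0 for the combination (16.9 to 3830). These intervals, like the floors, cover counting error only. KRT14 was called in both comparisons (edgeR adjusted p = 0.0015 and 0.00084), with fitted log2 fold changes of 5.84 and 6.17. These were 7.84 and 8.17 without control replicate 1, the control library with its count, and the decitabine value was 4.80 without decitabine replicate 3. KRT5 itself had at most 7 counts in any library and was not tested.

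Among suprabasal and squamous keratins, KRT10, a type I keratin of the differentiating epidermis, was the most abundant and was not called. It had 39.3, 32.3 and 26.7 CPM in controls, 25.2, 36.3 and 36.7 CPM with decitabine and 34.8, 42.2 and 39.5 CPM with the combination. The groups overlapped. The 95% interval of its log2 fold change was -0.37 to 0.37 for decitabine, and for the combination it was -0.12 to 0.61.

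KRT4, a type II keratin of the oral and oesophageal lining, had 0, 0 and 1 counts in controls, 96, 143 and 123 with decitabine and 60, 72 and 85 with the combination. KRT6A, a type II keratin of wounded and fast-dividing epithelium, had 1, 1 and 2.4 counts in controls, 40, 36 and 104 with decitabine and 70, 77 and 95 with the combination. Both genes were upregulated by both treatments without overlap of treated and control libraries. KRT4 had a ratio to controls of 308 for decitabine (95% counting interval 54.9 to 12200) and 189 for the combination (33.6 to 7520). The log2 fold changes of KRT6A were 5.15 (SE 0.62) and 5.61 (SE 0.60), with edgeR adjusted p-values of 9.1e-06 and 3.2e-06, and the first was 4.48 without decitabine replicate 3. Fitted log2 fold changes of KRT4 were 7.85 and 7.15, and 9.84 and 9.14 without control replicate 3, the control library with its count. In KRT6A transcripts, 44.07% of 31-base words are shared with other genes, mainly KRT6C, which had no count.

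KRT13, the type I partner of KRT4, had 4, 2 and 2 counts in controls, 19, 24 and 24 with decitabine and 15, 19 and 21 with the combination. Its log2 fold changes were 2.78 (SE 0.41, edgeR adjusted p = 2.8e-05) and 2.54 (SE 0.42, edgeR adjusted p = 8.8e-05). KRT9, the type I keratin of palm and sole epidermis, and KRT12, the type I keratin of the cornea, had no count in controls. KRT9 had 9, 12 and 17 counts with decitabine and 10, 5 and 16 with the combination, at least 10.8-fold and 9.02-fold above the controls. KRT12 had 22, 18 and 13 counts with decitabine and 18, 10 and 4 with the combination, at least 15.0-fold and 9.31-fold above the controls, the second being 6.10-fold without combination replicate 1. All 3 genes were upregulated by both treatments, and none had more than 24 counts in a library.

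Of the keratins outside these classes, KRT80 (chr12:52168996-52192014, minus strand), a widely expressed type II keratin, rose most in CPM. It had 14.6, 13.1 and 14.3 CPM in controls, 91.2, 103 and 123 CPM with decitabine and 75.5, 84.3 and 110 CPM with the combination. All treated libraries exceeded all controls. The rise was 7.57-fold with decitabine (log2 fold change 2.92, SE 0.16, edgeR adjusted p = 2.9e-08) and 6.43-fold with the combination (2.68, SE 0.16, edgeR adjusted p = 5.4e-08). KRT23 had no count in controls, 7, 13 and 16 with decitabine and 6, 5 and 12 with the combination. KRT79 had no count in controls, 14, 18 and 38 with decitabine and 9, 10 and 18 with the combination. Both were called higher with each treatment, KRT23 at least 10.2-fold and 6.69-fold and KRT79 at least 19.9-fold and 10.8-fold.

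**Figure D3:**
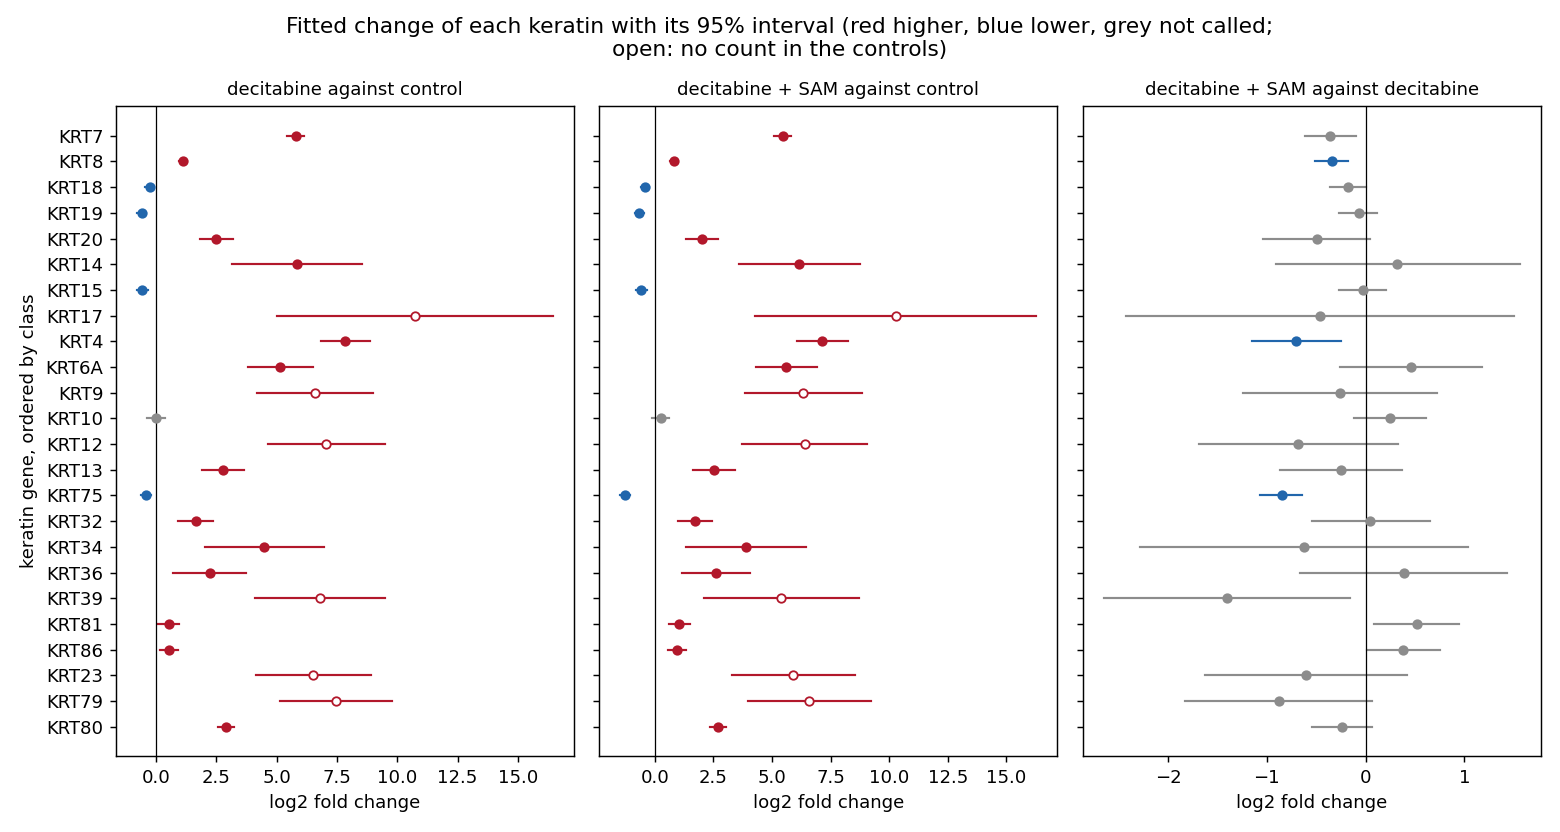
Fitted log2 fold change of the 24 tested keratins with its 95% interval in the 3 comparisons, coloured by the call at an edgeR adjusted p under 0.05. Open symbols mark the 6 genes with no count in controls, whose fitted values depend on the prior count, and in the third panel 3 genes (KRT75, KRT8 and KRT4) are called, all lower.

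To ask what SAM added to decitabine, the combination was compared with decitabine alone. KRT75, KRT8 and KRT4 were downregulated, no keratin was upregulated and 21 were not called by edgeR. At an unadjusted p under 0.05, edgeR had 2 keratins higher and 6 lower. No share of all genes is given at that unadjusted threshold, so both counts are a description only. With adjustment, voom and limma called 1 higher (KRT81) and DESeq2 called 0 higher. Over all genes tested, 15.7% were called, 7.67% higher and 8.02% lower. Changes over 1 on the log2 scale were called in 0.399% of all genes upwards and 1.74% downwards, and in 0 keratins. KRT75 was lower by 0.85 on the log2 scale (log2 fold change -0.85, SE 0.10, edgeR adjusted p = 0.00037), a call that held in all 9 fits that left out 1 library. KRT8 had a log2 fold change of -0.34 (SE 0.08, edgeR adjusted p = 0.0094), lost without combination replicate 2 (-0.34) or decitabine replicate 2 (-0.32). KRT4 had -0.70 (SE 0.21, edgeR adjusted p = 0.039). That call was lost without control replicate 2 (-0.70), combination replicate 1 (-0.59), combination replicate 2 (-0.71), decitabine replicate 2 (-0.56) or decitabine replicate 3 (-0.69).

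Between the treated groups, KRT81 had a log2 fold change of 0.52 (SE 0.19, 95% interval 0.09 to 0.95, edgeR adjusted p = 0.096) and did not pass the threshold. All 3 combination libraries were above all 3 decitabine libraries for KRT81 and for KRT86 (log2 fold change 0.38, edgeR adjusted p = 0.15), while 17.2% of all genes showed such a separation upwards. KRT7 had -0.36 (SE 0.12, 95% interval -0.61 to -0.10, edgeR adjusted p = 0.062). At 0.73 and 1.12, KRT81 and KRT6A passed the threshold without decitabine replicate 3, as did KRT14 at 1.37 and KRT20 at -0.75. Without combination replicate 3 it was passed by KRT7 (-0.44), KRT80 (-0.40) and KRT39 (-2.44), and without decitabine replicate 1 by KRT7 (-0.48). KRT17 had the widest interval of the 24, from -2.42 to 1.5.

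The third decitabine library stood out for keratins. It was the highest of its group for 17 of the 24 tested keratins, against 38.6% of all genes tested. Decitabine replicate 1 was the highest for 3 and replicate 2 for 4 of the 24. Replicate 3 was also the highest combination library for 13 keratins, against 38.1% of all genes.

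Summed over all 55 members, keratins took 0.188 to 0.224% of all counts in control libraries. The range was 0.271 to 0.379% in decitabine libraries and 0.358 to 0.374% in combination libraries. Simple keratins made up 44.3, 37.5 and 37.2% of keratin counts in controls, 40.8, 36.2 and 30.8% with decitabine and 27.2, 25.0 and 26.3% with the combination. The combination libraries were below all others, while control and decitabine libraries overlapped. The share differed from controls by -3.77 percentage points with decitabine (exact permutation p = 0.4, two-sided) and by -13.5 points with the combination (exact permutation p = 0.1, the smallest possible). The combination differed from decitabine by -9.75 points (exact permutation p = 0.1).

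Divided by transcript length, the hair class held 43.7 ± 4.56% of keratin RNA in controls, 49.9 ± 6.16% with decitabine and 63.4 ± 1.29% with the combination (SD, n = 3). KRT81 alone held 43.3, 49.2 and 62.7% in the mean. The basal class held 0.75, 0.805 and 0.643% and the suprabasal or squamous class 1.18, 1.18 and 1.15%, so these genes stayed a small part of keratin RNA in all groups. The summed simple class had 630 ± 30.6 CPM per kb in controls, 708 ± 19.1 with decitabine and 609 ± 40.4 with the combination. Type I keratins fell from 587 ± 36.4 CPM per kb in controls to 464 ± 8.17 and 425 ± 38.5, and the type I to type II ratio went from 0.798 ± 0.161 to 0.389 ± 0.0824 and 0.283 ± 0.0195. For type I over type II, the 3 groups did not overlap, with an exact permutation p of 0.1 in each comparison, the smallest possible.

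**Figure D4:**
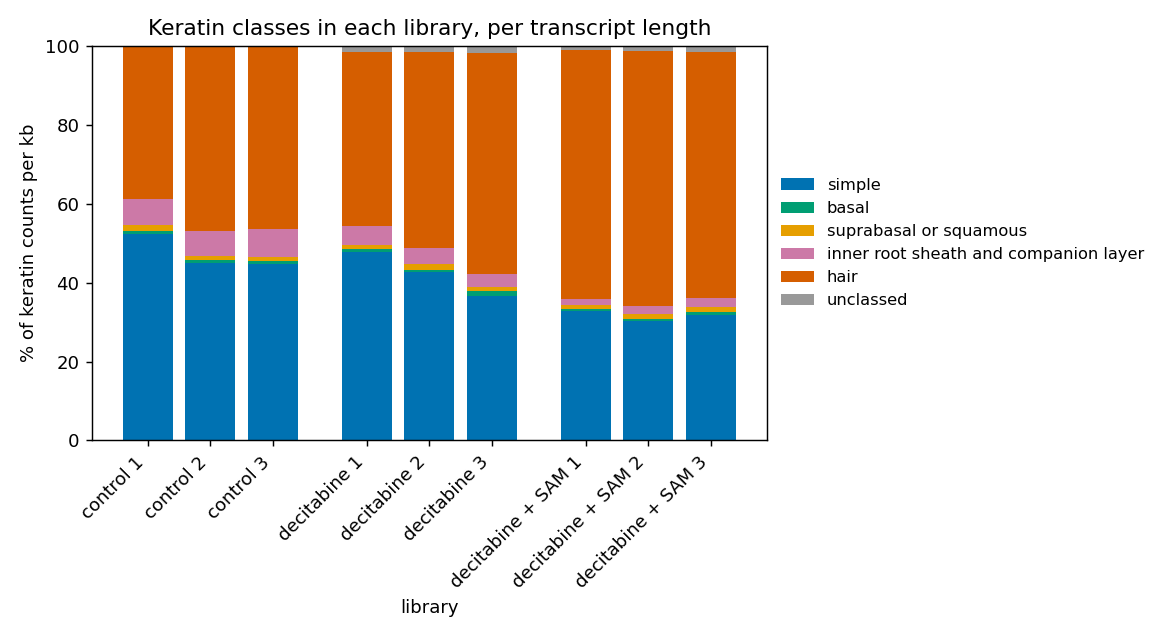
Share of keratin RNA by class in each library, in percent of keratin counts per kb of transcript, with stacked bars that add to 100. The hair class, nearly all KRT81, covers 38.5 to 46.7% in controls and 62.3 to 64.8% in combination libraries.

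Within the gene clusters, highly and barely expressed keratins lay side by side. On chromosome 12, KRT80, KRT7, KRT86 and KRT81 follow each other at one end and KRT8 and KRT18 lie at the other. Between them, KRT71, KRT74, KRT72, KRT73, KRT2, KRT1, KRT77 and KRT76 had at most 2 counts in any library. On chromosome 17, KRT13, KRT15 and KRT19 are neighbours, of which KRT13 was upregulated and KRT15 and KRT19 were downregulated by both treatments.

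**Figure D5:**
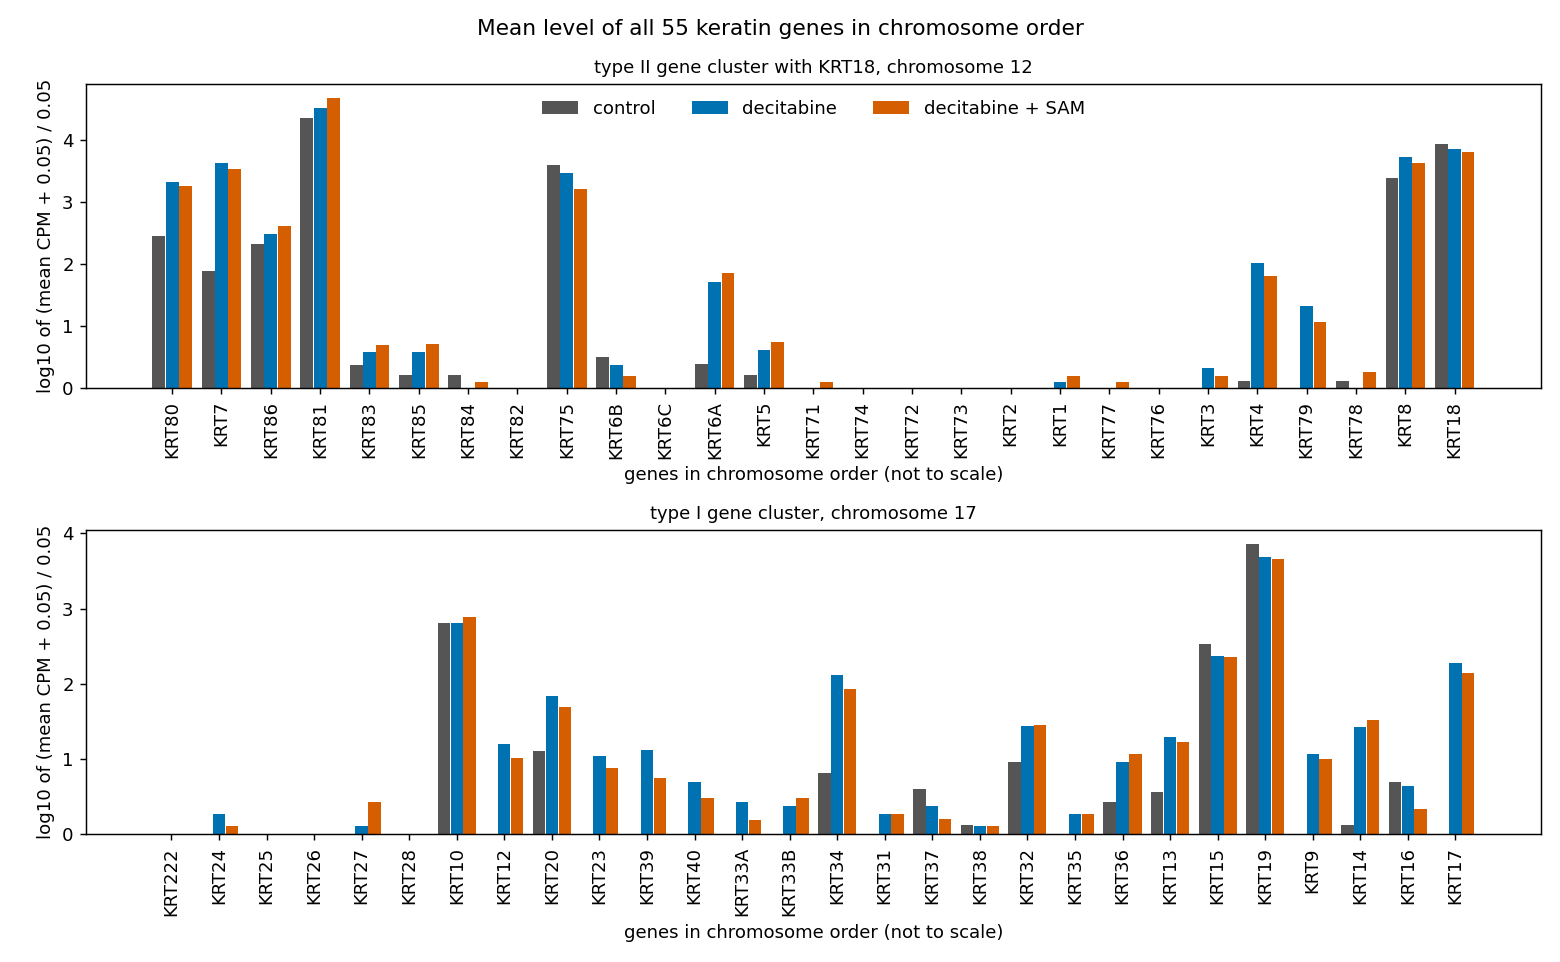
Mean level of all 55 keratin genes by group in chromosome order, as log10 of (mean CPM + 0.05) / 0.05, so that a bar of height 0 means no count. Genes with tall bars in all groups (KRT81, KRT75, KRT8, KRT18, KRT10, KRT15 and KRT19) stand among genes with no or few counts.

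Decitabine acts on DNA methylation at CG pairs, so the promoter sequences of some members are shown. RefSeq promoters (GRCh38.p14) whose start lay within 50 bases of the start of the gene's MANE Select or canonical GENCODE transcript were at hand for 33 members, 11 of them tested. In the 250 bases before the start, these 33 held 0 to 7 CG pairs, with a median of 2.0, against a median of 11.0 over all 35116 promoters of the table. At most 7 CG pairs were found in 43.7% of all promoters. The motif TATAAA, searched on both strands as TATAAA and TTTATA, was present in 21 of the 33 (63.6%) and in 10.7% of all promoters. Of the 11 tested members, only KRT10, KRT34 and KRT39 held this motif. KRT7, KRT8, KRT17, KRT18, KRT19, KRT80 and KRT81 were not among the 33, so these values do not describe them. The 4 sequences shown belong to 3 upregulated keratins and to KRT75, which was downregulated, and run 5′ to 3′ on the gene's strand, with each CG pair and TATAAA match in capitals. KRT4 (chr12:52814117-52814366, minus strand) has 3 CG pairs, KRT20 (chr17:40885243-40885492, minus strand) has 2, KRT34 (chr17:41382307-41382556, minus strand) has 0 and a TATAAA that begins 31 bases before the start, and KRT75 (chr12:52434372-52434621, minus strand) has 7.
KRT4: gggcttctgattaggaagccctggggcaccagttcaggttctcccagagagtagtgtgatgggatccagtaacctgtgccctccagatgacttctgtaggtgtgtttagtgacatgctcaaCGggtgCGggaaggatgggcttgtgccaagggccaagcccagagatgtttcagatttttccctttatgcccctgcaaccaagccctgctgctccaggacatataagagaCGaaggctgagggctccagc
KRT20: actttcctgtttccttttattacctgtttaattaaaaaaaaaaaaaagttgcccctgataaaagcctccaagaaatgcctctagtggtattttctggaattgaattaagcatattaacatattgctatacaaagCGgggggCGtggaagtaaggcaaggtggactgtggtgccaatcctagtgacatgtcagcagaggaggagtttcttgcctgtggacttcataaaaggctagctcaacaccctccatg
KRT34: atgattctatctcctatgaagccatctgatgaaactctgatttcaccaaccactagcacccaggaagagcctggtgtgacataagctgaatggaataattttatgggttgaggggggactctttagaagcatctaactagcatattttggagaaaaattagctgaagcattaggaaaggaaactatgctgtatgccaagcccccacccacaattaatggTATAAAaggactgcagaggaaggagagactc
KRT75: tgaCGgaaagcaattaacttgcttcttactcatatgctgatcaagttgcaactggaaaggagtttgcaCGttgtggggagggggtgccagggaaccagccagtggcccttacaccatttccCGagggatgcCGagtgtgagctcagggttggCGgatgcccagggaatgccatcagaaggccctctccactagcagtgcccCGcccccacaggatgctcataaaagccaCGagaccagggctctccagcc

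Among the named members, KRT34 with 0 CG pairs, KRT4 with 3 and KRT79 and KRT9 with 6 each were upregulated, KRT75 with 7 was downregulated and KRT10 with 0 was not called. Methylation was not measured in these files, and the matches are a description of the letters in the window.

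Genes whose proteins anchor or accompany keratin filaments were taken from lists of known members. Of 14 desmosome genes, which tie filaments of neighbouring cells together, 10 were tested, and decitabine raised 5 and lowered 5, beside 36.3 and 32.5% of all genes. All 10 were thus called, beside 68.8% of all genes. JUP (plakoglobin) had a mean of 42.4 ± 3.53 CPM in controls and 234 ± 20.8 CPM with decitabine (log2 fold change 2.46, SE 0.09, edgeR adjusted p = 2.9e-11). DSP (desmoplakin), which binds the filaments directly, had 34.0 ± 6.55 and 187 ± 4.14 CPM (2.46, SE 0.23, edgeR adjusted p = 2.7e-05). PKP1 (plakophilin 1) fell from 920 ± 29.2 to 463 ± 10.7 CPM (-0.99, SE 0.07). With the combination, 4 desmosome genes were higher and 5 lower (all genes 35.9 and 31.3%), and PKP3 was lower than with decitabine alone (-0.53, SE 0.10, edgeR adjusted p = 0.0051).

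Of the 6 hemidesmosome genes, which anchor filaments to the basement membrane, decitabine raised 1 and lowered 2, and the combination raised 1 and lowered 4, to be read against the same shares of all genes, as are the counts of the lists that follow. COL17A1 averaged 6.93 ± 0.695 CPM in controls, and 3.02 ± 0.724 and 2.03 ± 0.489 CPM after decitabine and the combination. ITGB4 was lower with the combination than with decitabine (log2 fold change -0.64, SE 0.14, edgeR adjusted p = 0.012). Of 16 other intermediate filament genes, 15 were tested, with 9 higher and 6 lower under decitabine and 7 higher and 6 lower under the combination. The neuronal filament genes INA, NEFH and NEFM had no count in controls and means of 17, 6.41 and 2.79 CPM with decitabine. NEFL, the most abundant gene of neuronal filaments here, went the other way, with log2 fold changes of -1.02 (SE 0.12, edgeR adjusted p = 5e-06) and -0.85 (SE 0.12, edgeR adjusted p = 2.6e-05) in the same order of treatments.

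Of 14 genes of transcription factors known to act on keratin genes, 12 were tested, and decitabine raised 8 and lowered 1, beside 36.3 and 32.5% of all genes. Among the raised genes, TP63, GRHL2, GRHL3 and OVOL2 had at most 3 counts in each control library. They passed the filter through the treated groups, so the number raised is given as a description. TP63, the master regulator of layered epithelia, had 0, 1 and 1 counts in controls, 154, 141 and 124 with decitabine and 171, 201 and 139 with the combination. GRHL3 had 1 to 2 counts in controls and 28 to 35 with decitabine, and EHF had 7 to 22 and 57 to 64. With the combination, 8 of the 12 were higher and 4 were not called, and GRHL1 was lower than with decitabine (-0.45, SE 0.12, edgeR adjusted p = 0.019). Of 23 cornified envelope genes, the protein coat of squamous cells, 5 were tested. Decitabine raised 3, among them CDSN from 3 to 5 counts in controls to 94 to 230 and TGM1 from 39 to 80 counts to 200 to 266, and lowered EVPL. The combination raised CDSN and TGM1, and 3 were not called, with EVPL at a log2 fold change of -0.24 and PPL at -0.01. The coat genes IVL and FLG had at most 1 and 2 counts in any library.

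Under decitabine the median log2 fold change was -0.06 for the desmosome list, -0.19 for the hemidesmosome list, 0.52 for other intermediate filaments, 1.44 for the regulators and 0.52 for the cornified envelope, against 0.03 for all genes. The counts and the median of a list cover its tested genes only. Some of these genes passed the filter through the treated groups, so list counts and medians are given as a description. Of 94 genes of keratin-associated proteins, which fill the hair shaft, 4 were tested and 3 were upregulated by decitabine, among them KRTAP2-3 from 1.65 to 5.36 CPM. With the combination 2 were higher and 1 lower, and KRTAP2-3 had 2.06 CPM and was not called (log2 fold change 0.32, edgeR adjusted p = 0.63). Of 150 keratin pseudogenes, 5 were tested and were not called with decitabine, KRT87P being nearest to the threshold (log2 fold change 0.69, edgeR adjusted p = 0.061). With the combination KRT87P was called higher (1.39) and KRT8P12 lower (-0.46).

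Genes that mark other cell types also had more counts in treated libraries. Over 14 markers of fibroblasts, endothelium, leukocytes, melanocytes and keratinocytes, the summed counts were 265 to 315.2 in controls, 2203.1 to 2637.2 in decitabine libraries and 2017.3 to 2358.1 in combination libraries. Of these markers 7 were tested, 7 were upregulated by decitabine (36.3% of all genes) and 6 by the combination (35.9% of all genes). Among the 7, DCN, LUM, VWF and PTPRC had at most 3 counts in each control library. They passed the filter through the treated groups, so the number of markers called is given as a description. COL1A1 had 50 to 76 counts in controls and 826.4 to 1617 in treated libraries, and PECAM1 had 197 to 206.2 and 700 to 990.2. Of the keratinocyte markers, KRT10 was left out of this sum as a member with 540 to 960 counts in every library, and KRT1, IVL and FLG summed to at most 3 counts in any library, the T cell gene CD3E had at most 2 and the pigment cell gene MLANA at most 1.1. The part of such markers in the keratin results was not tested.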

How the data were processed

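RNA of 9 PC-3 samples (3 per group) was sequenced. Per the labels, the authors quantified reads trimmed with Trim Galore 0.6.4 against GRCh38.p13 with kallisto, and deposited estimated counts per gene. These were rounded and tested here. The deposited log2 CPM files were not used. Pseudoaligned reads that match several genes are split between them, and use of strand is not given in the sources used here, so KRT81, KRT86, KRT6A, KRT14, KRT17, KRT18 and KRT8 are uncertain. Gene identifiers were matched to GENCODE release 44 (60357 of 60617).

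Counts were fitted with edgeR 4.0.16 (R 4.3.3; filterByExpr, TMM, robust quasi-likelihood test) over all 9 libraries, adjusted by Benjamini-Hochberg over 18532 genes and called under 0.05. SE is the log2 fold change divided by the square root of F. The script was tested on simulated counts in which few genes changed, unlike here, where 68.8% were called with decitabine. That test therefore does not cover so broad a shift. Members were named if they averaged 50 or more counts in any group, or 10 or more when called. In other lists, the 3 largest called changes averaging 50 or more counts were named by rule, and other genes were chosen after their values were seen. Members and lists were chosen with earlier results of these data known. Alternatives were DESeq2 1.42.0, voom and limma 3.58.1, other scalings and filters, fewer libraries and a replicate block. Shares were compared by exact permutation tests.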

Additional observations from a re-analysis of the deposited data

How the results depend on the processing

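Against controls, 19 keratins were higher with decitabine and 19 with the combination, and each count stayed within 1.5 times under every alternative run. Of the 4 keratins lower with decitabine, 2 were called with library size alone, and 1 of the simple keratins, and 0 keratins of either set passed an absolute log2 fold change over 1. Leaving out 1 library gave 1 to 2 simple keratins lower. With the combination, 1 of 4 lower keratins and 0 simple keratins passed that fold. For the combination against decitabine, keratins called higher numbered 1 without a filter, 1 with voom and limma and 0 to 3 with 1 library left out, the 3 without decitabine replicate 3. Keratins called lower numbered 0 past that fold and 1 to 6 with 1 library left out, 1 without decitabine or combination replicate 2 and 6 without combination replicate 3. Simple keratins called lower numbered 2 with DESeq2, 2 without a filter, 0 past that fold and 0 to 2 with 1 library left out. The cause was not tested.

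Same-numbered libraries did not pair in all cases (correlations of deviations from -0.0165 to 0.233), and the fit with the replicate block gave 5 keratins and 2 simple keratins lower with the combination than with decitabine. Some uncalled changes altered sign. KRT10 with decitabine was 0.02 under DESeq2, its size factors or a mean of at least 10 counts, 0.03 with only 6 libraries and 0.25 with library size alone, and -0.14 to 0.15 with 1 library left out. For the combination against decitabine, leaving out 1 library gave ranges of -1.52 to 0.03 for KRT34, -0.17 to 0.25 for KRT32, -0.24 to 0.75 for KRT36, -0.18 to 0.02 for KRT19, -0.70 to 0.06 for KRT9, -0.12 to 1.37 for KRT14 and -0.92 to 0.30 for KRT17. The difference in simple share kept its sign in every alternative, at -6.21 to -1.23 percentage points for decitabine against control (-3.77 with all libraries, -6.21 without decitabine replicate 1, -1.23 without decitabine replicate 3 and -1.46 without control replicate 1), -15.7 to -11.2 for the combination against control and -12.3 to -7.32 between the treated groups. With 3 libraries a group, an exact test of shares cannot go below 0.1, and keratins with few counts have wide intervals.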
